A study of Mus musculus with 6 samples.

Results

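The 4 genes described here encode a growth factor and its receptors: Gdnf, the ligand; Gfra1 and Gfra2, the co-receptors GFRα1 and GFRα2; and Ret, the receptor tyrosine kinase that both co-receptors share. Their probes were chosen by name alone, through the RefSeq accession that the array files give for each probe. Each gene had 1 probe in 1 spot, so the set held 4 of the 55681 probes on the array, and 26762 of these probes could be given a gene symbol. The accessions were NM_010275 for Gdnf, NM_010279 for Gfra1, NM_008115 for Gfra2 and NM_001080780 for Ret. RefSeq lists 4, 2, 3 and 2 curated messenger RNAs for Gdnf, Gfra1, Gfra2 and Ret, and the sources used here do not say which of these each probe reads.

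Glial cell line-derived neurotrophic factor (GDNF) is the niche factor on which the self-renewal of spermatogonial stem cells depends, in the testis and in culture. It is secreted by Sertoli cells and peritubular myoid cells. GDNF binds GFRα1, a protein anchored to the outer face of the membrane by a lipid, and the complex brings together and activates RET, which signals through Src family kinases, the PI3K and AKT kinases and the Ras and MAPK cascade. GFRα2 is the preferred co-receptor of neurturin, a related ligand, and can also bind GDNF. Transcription factors such as Etv5, Bcl6b and Lhx1 lie downstream of GDNF in these cells.

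RNA came from mouse testis cells that were passaged as floating cells and then kept on mouse embryonic fibroblast feeders. The captopril group received 0.01 M captopril, an inhibitor of angiotensin-converting enzyme, for 24 h. The water group received sterile water, which the labels also give as 0.01 M, for the same time. Each group had 3 single-colour Agilent arrays, numbered 2, 3 and 4 and described as independent experiments; the sources used here do not give strain, age, genotype or the GDNF content of the medium. The series title ties somatic angiotensin-converting enzyme to self-renewal through MAPK signalling, and the comparison here asks whether the transcripts of the factor that sustains self-renewal, and of its receptors, differed with captopril. If the 3 experiments were not separate cultures from separate animals, the p-values below measure only the spread between these samples.

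Levels are log2 of the processed spot signal minus the 75th percentile of the same array, so 0 is the 75th percentile and a difference of 1 is 2-fold. They compare 1 gene across arrays and not one gene with another. The share of spots well above background was 52.2% on water replicate 3 and 57.3% to 60.5% on the other arrays. Water replicate 3 stood apart: it correlated at 0.878 to 0.893 with the other arrays over 32380 probes, while the others correlated at 0.970 to 0.991 with each other. Each result is therefore given over all 6 arrays and over the 5 arrays without it. Germ cell markers were plainly present, with Tex101, Uchl1 and Dazl well above background on all 6 arrays, and 14 of 15 such markers could be tested. All 18 fibroblast markers could be tested too, with Col1a2, Sparc and Col1a1 well above background on every array. The share of feeders, or of somatic cells of the testis, in this signal was not tested. Each value is therefore read as that of a mixture of germ cells and other cells. In such a mixture fewer cells of a type and less RNA per cell cannot be told apart. Of the Sertoli cell markers, no array had Amh, Fshr, Gata1 or Cldn11 well above background. Clu, Rhox5, Inhba, Inhbb, Wt1 and Sox9 were well above it on all 6, Aard on 5 and Dhh on 3. Of the Leydig and myoid markers, no array had Cyp11a1, Cyp17a1, Hsd3b1 or Lhcgr well above background. Star, a Leydig cell gene, and the myoid genes Acta2 and Cnn1 were well above it on all 6. The muscle filament genes Des and Myh11 were on 5.

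Gdnf was the one member whose captopril arrays all lay above all water arrays. On water replicates 2, 3 and 4 its level (log2) was −4.31, −3.42 and −4.19, and it was −3.09, −3.18 and −3.29 on captopril replicates 2, 3 and 4. The captopril arrays lay close together, and water replicate 3 lay nearer to them than to the other water arrays. The separation depends on the scaling: relative to the array median, water replicate 3 lay above all captopril arrays. Its Gdnf signal was 176 against an array median of 97.1. On captopril replicates 2, 3 and 4 the signals were 385, 308 and 192 against medians of 255, 228 and 155. The transcript was dim but measured: the probe was well above background on all 6 arrays, with processed signals of 141 to 385. The dimmest signals called well above background were 60.2 to 96.7, depending on the array.

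Over all 6 arrays Gdnf stood at −3.97 ± 0.49 (SD, n = 3) in water and at −3.19 ± 0.10 (n = 3) with captopril. The captopril minus water difference, the log2 fold change, was 0.79 with an SE of 0.29, or 1.73-fold with a 95% confidence interval of 1.07 to 2.78. Its unadjusted p of 0.030 did not pass after Benjamini-Hochberg adjustment over 14876 genes (limma, adjusted p = 0.591). No gene passed in that fit (0%, 0 of 14876), and 1222 (8.21%) had an unadjusted p under 0.05. An exact permutation test gave p = 0.1 (two-sided), the lowest possible with 3 arrays in each group. With the array median or quantiles for scaling the value was 0.47 or 0.51, the interval included 0 and the unadjusted p was 0.297 or 0.217 (limma). Groups did not overlap in 21.6% of all genes, and in 10% the captopril arrays were the higher ones, so 1 such gene among 4 is not far from the array as a whole.

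Without water replicate 3, Gdnf rose with captopril by 1.07 on the log2 scale (SE 0.15), that is 2.09-fold with a 95% confidence interval of 1.64 to 2.67. limma gave an adjusted p = 0.0432 over all genes. An exact permutation test gave p = 0.1 (two-sided), the lowest possible with 2 water and 3 captopril arrays. Water then stood at −4.25 ± 0.08 (SD, n = 2). In that fit limma called 91 genes (0.612%), of which 62 were higher (0.417%) and 29 lower. The call lies near the threshold: it was lost in 9 of 12 alternatives, among them both other scalings and each further array left out, and the adjusted p ranged from 0.0386 to 0.404. The rise itself kept its direction in all 12, from 0.85 with normexp background correction to 1.13 without water replicate 4.

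**Figure D1:**
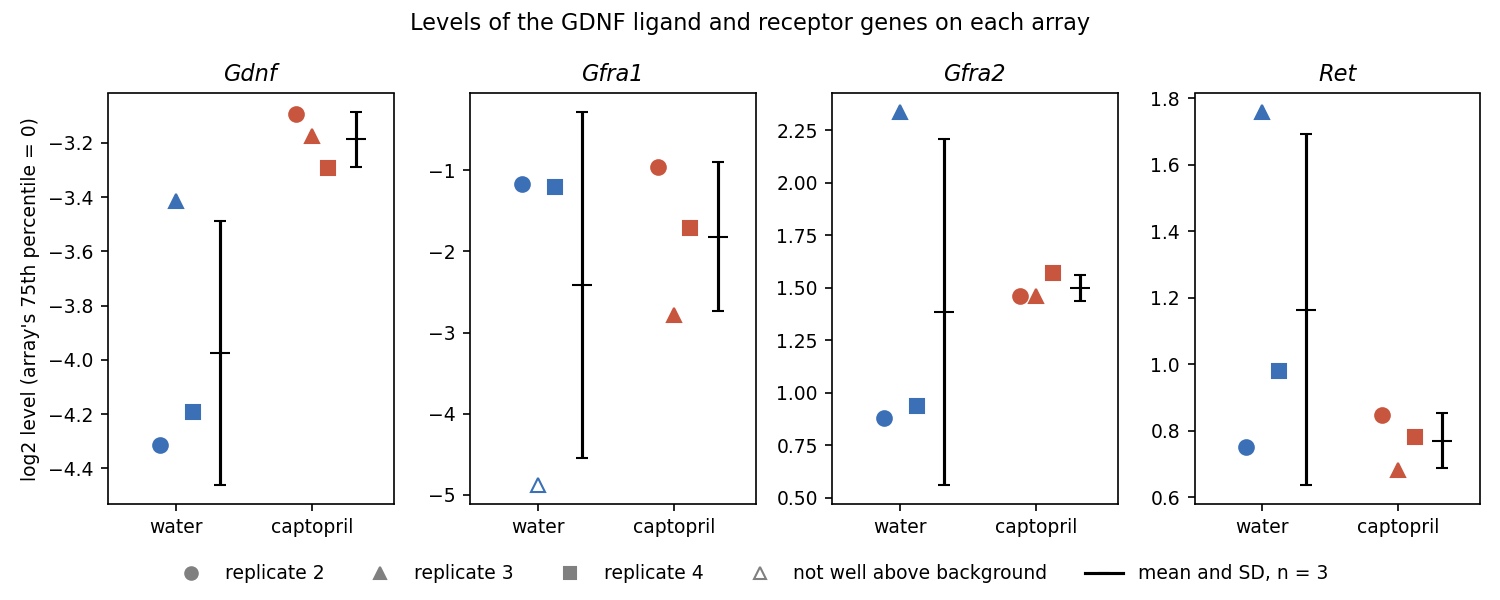
Log2 level of Gdnf, Gfra1, Gfra2 and Ret on each array, relative to the 75th percentile of that array, for water (blue) and captopril (red); each panel has its own vertical scale, symbols are replicates 2, 3 and 4, and bars give the mean and SD of 3 arrays. Water replicate 3 is the lowest point for Gfra1, at −4.88 and not well above background, and the highest for Gfra2 and Ret, while all captopril points lie above all water points for Gdnf alone.

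No marker of feeder, Sertoli, Leydig or myoid cells passed the test as higher with captopril. Of all genes 0% did over 6 arrays and 0.417% over 5, so this says little about these cells. Over the 18 fibroblast markers the median level, after each gene was centred on its median, was 0.04 and 0.02 on water replicates 2 and 4. It was −0.07, −0.24 and −0.05 on captopril replicates 2, 3 and 4, and 0.81 on water replicate 3. Their median log2 fold change was −0.49 over 6 arrays and −0.22 over 5, against −0.03 and 0.07 for all genes tested. None passed in the first fit. In the second 1 passed as lower with captopril, as did 29 of all 14876 genes tested. Groups did not overlap for 8 of the 18 over 6 arrays, all lower with captopril. Over 5 arrays this held for 12, of which 9 were lower and 3 higher. In either direction the share of all genes was 21.6% and 43%. The 8 measurable Sertoli markers had medians of −0.44 and −0.12, with none past the test in either fit, and the 5 Leydig and myoid markers −0.05 and 0.07, likewise with none. The centred median of the Sertoli markers was 0.85 on water replicate 3, and −0.22 to 0.07 on the others. Levels were higher on water replicate 3 for genes at large, by a median of 0.42 over the mean of the other 5 arrays. The centred median of the germ cell markers was 0.41 there. The part of these cells in the value of Gdnf, or in those of the receptors, was not tested.

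Gfra1, whose protein marks the most undifferentiated spermatogonia, varied more between arrays of one group than between groups. On water replicates 2, 3 and 4 its level (log2) was −1.17, −4.88 and −1.20. It was −0.96, −2.79 and −1.71 on captopril replicates 2, 3 and 4. Captopril replicate 2 was thus the highest of all arrays, captopril replicates 3 and 4 lay below both water replicates 2 and 4, and water replicate 3 was far below the rest. On water replicate 3 the probe was not well above background, at a processed signal of 63.7, against 403 to 1682 on the other 5 arrays, so the level there is only a bound.

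The sign of the Gfra1 difference followed that single spot. Over 6 arrays the log2 fold change was 0.60 with an SE of 1.02 and a 95% confidence interval of −1.82 to 3.01 (limma, adjusted p = 0.850). Over 5 arrays it was −0.64 with an SE of 0.47 and an interval of −1.76 to 0.49 (adjusted p = 0.485). Water stood at −1.18 ± 0.03 (SD, n = 2) in the second fit, and captopril at −1.82 ± 0.92 (n = 3). Each interval includes a halving and no change, and the first includes a doubling too. With captopril replicate 2 left out as well, the 5-array value went to −1.06, and with captopril replicate 3 left out to −0.15, so these arrays moved it by over 1.5 times in opposite directions.

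The spread of Gfra1 within the captopril group was among the wider ones on the array. Its SD of 0.92 over the 3 captopril arrays was reached or passed by 1.41% of the genes tested, whose median SD was 0.20. Its SD over water replicates 2 and 4 was 0.03, below the median of 0.11. Gdnf, Gfra2 and Ret were tight with captopril, with SDs of 0.10, 0.06 and 0.08.

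Gfra1 was one of many genes at background on water replicate 3 alone. Of 14163 genes that were well above background on all 5 other arrays, 752 (5.31%) were not well above background there. Of the same 14163, 505 (3.57%) lay as far below the mean of the other 5 arrays as Gfra1, or further. Around the Gfra1 spot, 22 spots within 3 rows and columns were well above background on the other arrays, and on water replicate 3 the median of their levels minus the mean of the other arrays was 0.21, against 0.26 for 32464 such spots over the array. The part of a local defect of the Gfra1 spot itself was not tested.

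**Figure D2:**
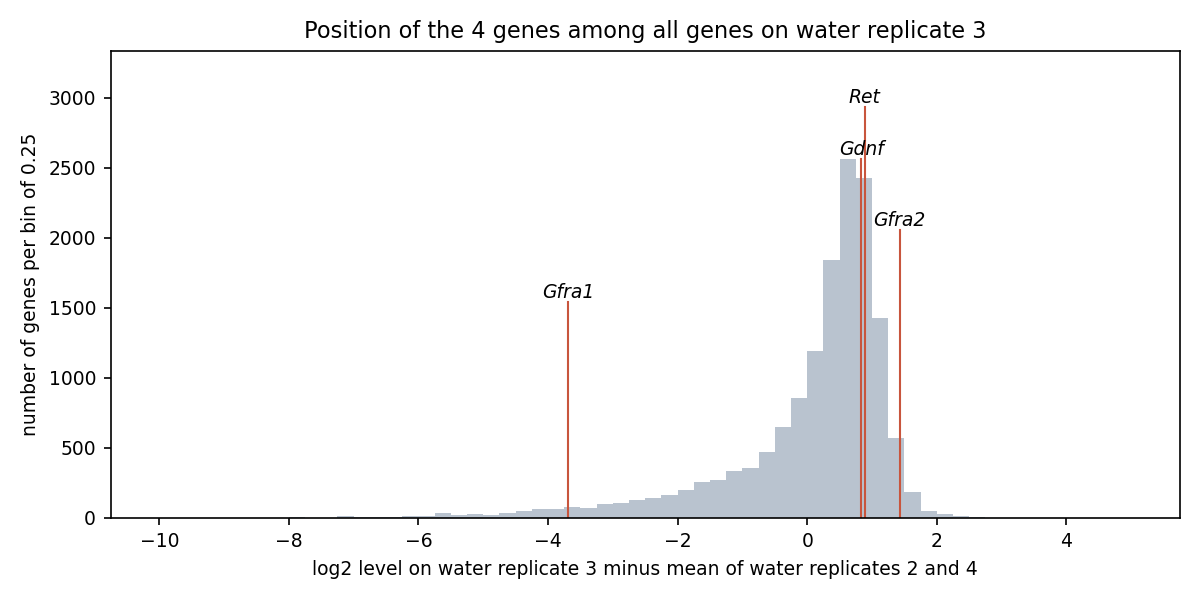
Histogram over 14869 genes of the log2 level on water replicate 3 minus the mean of water replicates 2 and 4 (horizontal axis; vertical axis, genes per bin of 0.25), with red lines at the 4 genes. Most genes lie above 0, with a long tail to the left that holds Gfra1 at −3.69 (a bound), while Gdnf at 0.84 and Ret at 0.89 lie in the main body and Gfra2 at 1.43 near its right edge.

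Gfra2 was bright, and its groups separated once water replicate 3 was left out. In water its level (log2) was 0.88, 2.34 and 0.94, for replicates 2, 3 and 4. With captopril it was 1.46, 1.46 and 1.57 on replicates 2, 3 and 4. All captopril arrays lay above water replicates 2 and 4, and all lay below water replicate 3, which stood highest of the 6.

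Over 6 arrays the log2 fold change of Gfra2 was 0.11 (SE 0.41, limma adjusted p = 0.939), with a 95% confidence interval of −0.85 to 1.07. Over 5 arrays it was 0.59 with an SE of 0.14, or 1.50-fold with an interval of 1.20 to 1.89, and did not pass over all genes (adjusted p = 0.0998). In that fit 43% of all genes had groups that did not overlap, 27.2% with captopril higher, and 19.1% had an unadjusted p under 0.05. Among the 4 members Gdnf and Gfra2 met all of these. On 4 of the 6 arrays the scanner program flagged the local background around the Gfra2 spot as an outlier, a flag carried by 13.6% to 18.3% of spots. The background was small beside the spot, with medians of at most 52.5 against spot medians of at least 6321. Only water replicate 3 and captopril replicate 4 lacked the flag, and with flagged spots left out these 2 arrays alone gave −0.76.

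Ret, the kinase that carries the signal into the cell, showed no difference that passed the test. Its level (log2) was 0.75, 1.76 and 0.98 in water, in the order of replicates 2, 3 and 4, and 0.85, 0.68 and 0.78 on captopril replicates 2, 3 and 4. The captopril arrays overlapped with water replicates 2 and 4, and water replicate 3 lay above all of them. The log2 fold change was −0.39 over 6 arrays (SE 0.30, limma adjusted p = 0.654), with a 95% confidence interval of −1.11 to 0.32. Over 5 arrays it was −0.10 (SE 0.15, adjusted p = 0.741), and its interval of −0.46 to 0.26 corresponds to 0.728-fold to 1.20-fold. Of the 4 genes Ret had the value nearest to 0 in the fit of 5 arrays. Within slide row 2, which holds all captopril arrays but water replicate 4 as its sole water array, the log2 fold changes were 1.01 for Gdnf, −0.62 for Gfra1, 0.56 for Gfra2 and −0.21 for Ret. These share 4 arrays with the fit of 5 arrays and are no independent check of it.

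**Figure D3:**
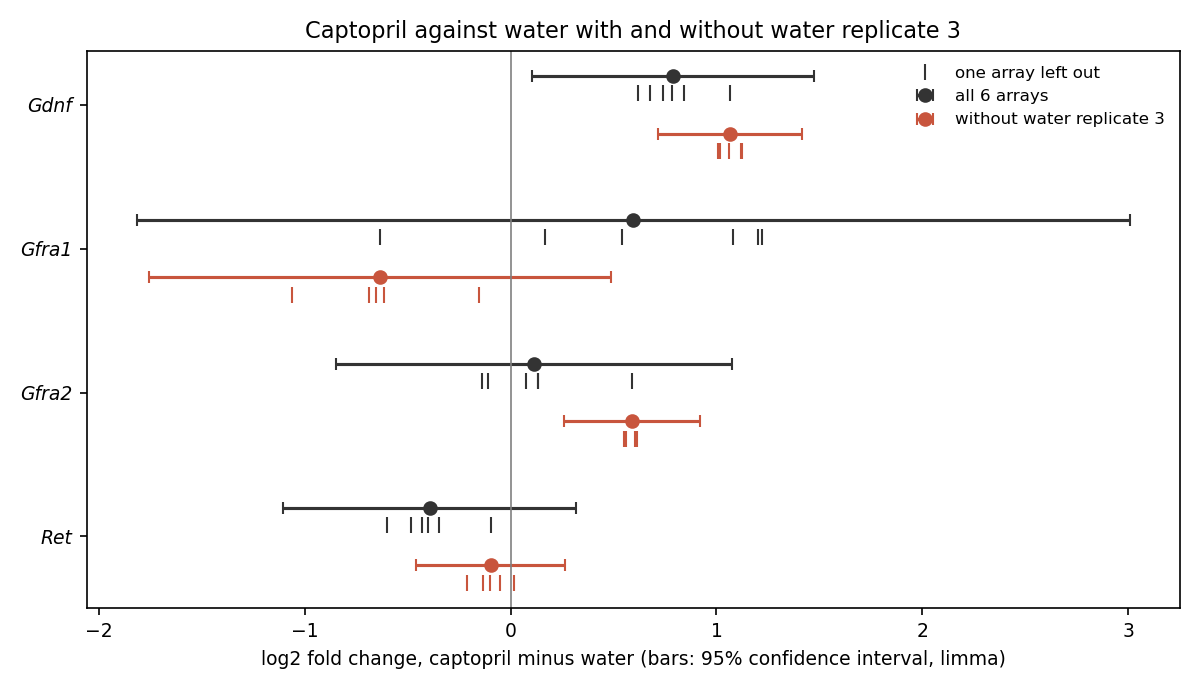
Captopril minus water, as log2 fold change, for the 4 genes (points) with limma's 95% confidence interval (bars), over all 6 arrays (black) and without water replicate 3 (red); ticks below each bar give the value with one array left out. Leaving out water replicate 3 narrows every bar, moves Gfra1 from 0.60 to −0.64 and Gfra2 from 0.11 to 0.59, and leaves Gdnf above 0 throughout.

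The other ligands and co-receptors of the family held no gene past the test, which 0% of all genes passed over 6 arrays and 0.612% over 5. Of 10 genes 8 could be tested, and Pspn, the ligand persephin, was at background on every array. Of the 8, 7 had negative values in both fits, with medians of −0.40 over 6 arrays and −0.24 over 5, against −0.03 and 0.07 for all genes. Groups did not overlap for 2 of the 8 in each fit. Among all genes the share was 21.6% over 6 arrays and 43% over 5. Nrtn, the neurturin gene whose product prefers GFRα2, stood at 1.99, 2.20 and 1.80 on water replicates 2, 3 and 4 and at 1.45, 1.63 and 1.77 with captopril. Its groups did not overlap, narrowly, and its log2 fold change was −0.38 (SE 0.22, limma adjusted p = 0.635) over 6 arrays and −0.28 (adjusted p = 0.388) over 5. Gfra4, the co-receptor for persephin, was the one positive member at 0.95 (SE 0.48, adjusted p = 0.622), or 0.42 over 5 arrays. Its other probes gave 0.99 and 0.42 over 6 arrays, and 0.12 and 0.20 over 5.

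Adaptors and kinases that act on activated RET showed no common direction. Of 27 genes 24 could be tested, with 12 positive and 12 negative values and a median of 0.03 over 6 arrays, and with 14 positive and 10 negative values and a median of 0.05 over 5. None passed in either fit, against 0% of all genes over 6 arrays and 0.612% over 5, so the absence of calls says little about this list. Groups did not overlap for 3 of the 24 over 6 arrays and for 9 over 5. Among all genes the share was 21.6% and 43%. Dok1, a docking protein that restrains tyrosine kinase signalling, had the smallest p over 6 arrays of those reported here. It stood at 1.28, −0.66 and 0.93 on water replicates 2, 3 and 4 and at 1.39, 1.56 and 1.78 with captopril, so that its groups did not overlap, with water replicate 3 far below the rest. Its log2 fold change was 1.06 (SE 0.50, limma adjusted p = 0.617) over 6 arrays and 0.47 (SE 0.19, adjusted p = 0.241) over 5. Sos2, an exchange factor that activates Ras, stood at −1.68, 0.37 and −0.67 in water and at −1.56, −1.84 and −1.59 with captopril. Here the groups overlapped and water replicate 3 was the highest array, and the value was −1.002 (SE 0.49, adjusted p = 0.619) over 6 arrays and −0.49 over 5.

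Genes known to respond to GDNF in spermatogonia did not pass the test either, where 0% of all genes passed over 6 arrays and 0.612% over 5. Of 15 genes 14 could be tested, Egr3 being at background on every array, with 7 positive and 7 negative values and a median of −0.01 over 6 arrays. Over 5 arrays 10 were positive, with a median of 0.21 against 0.07 for all genes. Groups did not overlap for 4 of the 14 over 6 arrays and for 7 over 5. Among all genes the share was 21.6% and 43%. Etv5, Bcl6b and Lhx1 had log2 fold changes of 0.11, 0.36 and 1.90 over 6 arrays. Over 5 arrays the values were 0.37, 0.64 and 0.13. Lhx1 stood at −3.80 on water replicate 3, against 1.37 to 1.97 on the other arrays. T, the brachyury gene, had the smallest p. Its level (log2) was −1.26, −0.42 and −1.26 on water replicates 2, 3 and 4 and −0.30, 0.15 and 0.33 on captopril replicates 2, 3 and 4, so that its groups did not overlap. The log2 fold change was 1.04 (SE 0.32, limma adjusted p = 0.552) over 6 arrays and 1.32 (SE 0.21, adjusted p = 0.0550) over 5. Mycn, a Myc family transcription factor, went the other way: 1.70, 2.68 and 1.59 in water, and 1.15, 1.17 and 0.88 with captopril. Its groups did not overlap in either fit. The log2 fold change of Mycn was −0.92 (SE 0.33, limma adjusted p = 0.591) over 6 arrays and −0.58 (SE 0.16, adjusted p = 0.135) over 5.

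**Figure D4:**
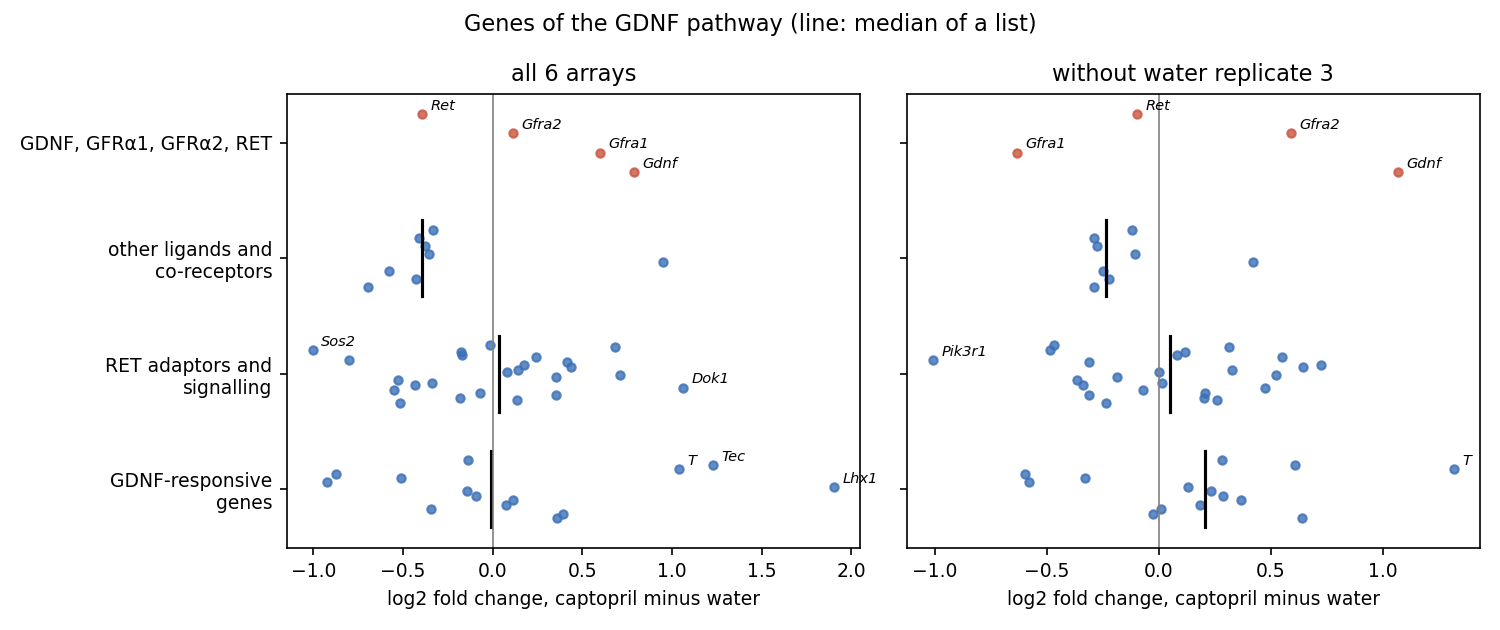
Log2 fold change, captopril minus water, of every tested gene of the GDNF pathway lists (points; lines are list medians), over all 6 arrays on the left and without water replicate 3 on the right. Among the RET adaptors and the GDNF-responsive genes points lie on both sides of 0 in each panel, and the other ligands and co-receptors lie below 0 but for Gfra4.

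For each of the 4 genes the pattern over the 6 arrays was set beside that of 14851 others, as Pearson's r of the log2 levels. This is a description over 6 arrays, 3 a group, on which water replicate 3 weighs heavily. The genes closest to Gdnf were Ccn1, a secreted matrix-associated protein, at r = 0.996, Col20a1 at 0.990, Uba7 at 0.988, Prss12 at 0.985 and Prss27 at 0.984. Like Gdnf they were lower on water replicates 2 and 4 than on water replicate 3, and highest with captopril: Col20a1 stood at −3.49, −2.70 and −3.29 in water and at −2.21, −2.41 and −2.56 with captopril. Over 5 arrays Prss12 was past the threshold (1.62, limma adjusted p = 0.0361) and the other 4 were not (adjusted p = 0.0515 to 0.0812), which is a description, since they were picked for following Gdnf.

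The genes closest to Gfra1 were Vps13c (r = 0.997), Nudt21 (0.990), Wdr11 (0.988), C2cd5 (0.988) and Txndc12 (0.987). All were lowest on water replicate 3 and next lowest on captopril replicate 3. C2cd5 came nearest in size, with a root mean square difference of 0.32 between centred profiles. It stood at −3.70, −6.67 and −3.60 in water and at −3.34, −4.58 and −4.26 with captopril, and like Gfra1 it was not well above background on 1 array. Nudt21, which encodes a subunit of a pre-mRNA cleavage factor, moved over a much smaller range, from 3.50 to 4.02.

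Gfra2 and Ret had many close neighbours, with 32 and 39 genes above r = 0.99, against 1 for Gdnf and 2 for Gfra1. Those nearest to Gfra2 were Cnn2, an actin-binding calponin (r = 0.9997), Arhgef17, Fam83h, Gadd45a and Gpm6b (0.996 to 0.997). Cnn2 repeated its steps closely, at 1.38, 2.68 and 1.43 in water and 1.89, 1.89 and 2.02 with captopril. Those nearest to Ret were Pls1, Gatad1, Spast, Thumpd3 and Hs6st2 (r = 0.997 to 0.998). Gatad1 matched it in size as well, with a root mean square difference of 0.02, with 1.14 on water replicate 3 and 0.06 to 0.33 elsewhere.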

How the data were processed

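Each array's spot intensity values were deposited by the authors as Agilent Feature Extraction output, of version 11.5.1.1 in the file headers and of version 10.7 per the submitters' processing notes, with background subtracted within the array. The authors' deposited log2 table equals log2 of these signals minus a constant per array to within 0.01 for nearly all probes; the sources used here do not say how that constant was set, and the table served as an alternative. All arrays lie on 1 slide, scanned on 1 date, and row 1 of the slide held water replicates 2 and 3 alone.

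Spots flagged as feature outliers were left out, the 75th percentile of each array was subtracted from log2 signals, and probes were named through RefSeq accessions (GRCm38.p6 gene table). The array design is on mm9, so no coordinates are given. Of the probes of a gene that were well above background on 3 or more arrays the brightest was used, which left 14876 genes. The group test was limma 3.58.1 (lmFit, eBayes; R 4.3.3), two-sided, with Benjamini-Hochberg adjustment over all genes and a threshold of 0.05, on 6 arrays and on 5 without water replicate 3. Simulated data served to test the code. Tables and plots used Python 3.11.15, pandas 2.3.3, numpy 2.4.6 and matplotlib 3.10.9. Precision is limited by the number of arrays.

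The members, lists and the choice to leave out water replicate 3 were made with earlier results of these data known. Named besides the members are, in each pathway list, genes past the threshold in either fit or else the 2 of smallest p over 6 arrays. Etv5, Bcl6b and Lhx1 and the 5 genes most like each member are named too. From each marker list come genes not well above background on any array and the 3 brightest. The other tested genes of the Sertoli, Leydig and myoid lists are named as well. Alternatives were normexp background correction (offset 50, on median spot and background signals), quantile and median scaling, other filters on dim probes, averaging a gene's probes, the authors' table, the replicate number or slide row as a block, and each array left out in turn. Leaving out spots with background flags, and all alternatives of the 5-array fit other than quantile and median scaling, were added after the data were seen. An item of the RET list is not reported here.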

Additional observations from a re-analysis of the deposited data

How the results depend on the processing

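Over 6 arrays limma called 0 genes under each alternative that kept water replicate 3, with 343 to 1580 at an unadjusted p under 0.05, and 0 to 91 with one array left out. Scaling by the array median moved the median log2 fold change of all genes from −0.03 to −0.35, and the values below are to be read against that. Gdnf kept its direction in all 18 alternatives (0.62 to 1.07 with one array left out, 0.47 and 0.51 with median and quantile scaling) and Ret in all 18 (−0.60 to −0.10 with one array left out, −0.71 with median scaling). Gfra1 turned to −0.62 with slide row as a block, where water replicate 4 is the only water array compared, and to −0.69 and −0.79 without water replicate 3 under quantile and median scaling; with one array left out it ran from −0.64 to 1.22. A filter on all 6 arrays gave no value for it, since it removes the probe. Gfra2 turned to −0.20 with median scaling, above the shift of all genes, to −0.76 with background-flagged spots left out, and ran from −0.14 to 0.59 with one array left out.

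In the fit of 5 arrays the 91 calls became 0 with quantile scaling, with median scaling and without a filter on dim probes (2997, 3014 and 2844 at an unadjusted p under 0.05), and 0 to 36 with a further array left out. Gdnf lost its call at 0.85 with normexp, 0.92 and 0.91 with quantile and median scaling, and 1.07 without the filter, and ran from 1.01 to 1.13 with a further array left out. Gfra1 ran from −1.06 to −0.15, Gfra2 from 0.55 to 0.62 and Ret from −0.21 to 0.02 (0.017 without water replicate 4). Leaving out a second water array leaves 1, which is then assumed to vary like the captopril arrays. The cause of these changes was not tested.

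With the replicate block the values stayed at 0.79 for Gdnf, 0.60 for Gfra1, 0.11 for Gfra2 and −0.39 for Ret (limma adjusted p = 0.551, 0.772, 0.991 and 0.842), and 0 genes were called. Deviations from the group mean of same-numbered arrays correlated at −0.02, 0.02 and −0.19 for numbers 2, 3 and 4. With 3 arrays a group and water replicate 3 far from the rest, these values cannot decide whether a shared number marks a pair.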
